A study of Homo sapiens with 4 samples.

Results

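The genes described here carry peptides to the cell surface on major histocompatibility complex (MHC) class I, and they are 9 of the 57820 gene identifiers in the count files. They were picked out by symbol and not by a cut on measured values, but earlier results of these data were known when the list was chosen. The 9 are HLA-B, HLA-C, HLA-E, B2M, TAP1, TAP2, TAPBP, ERAP1 and NLRC5, each matched by 1 identifier. RNA was measured in 2 libraries of parental A549, a human lung adenocarcinoma cell line of epithelial morphology, and in 2 libraries of TD. The TD line was derived from A549 by transforming growth factor beta (TGF-β), is given 2 ng/ml of it again at intervals of 3 days, and carries the label mesenchymal-like. Both lines grew in medium with 10% serum and gentamycin, and the labels name no added interferon, no genetic change and no TGF-β for the parental cells. The labels do not say how long TD cells had been on TGF-β, whether they are a single clone, or whether replicates were grown as separate cultures, so the p-values below cover the spread between libraries, which may be technical. The comparison of TD with A549 asks how RNA of this pathway differs between the mesenchymal-like and the parental cells.

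A class I molecule is a heavy chain, encoded by HLA genes, bound to beta-2-microglobulin and to a short peptide made in the cytosol, mostly by the proteasome. TAP1 and TAP2 form the pump that moves peptides into the endoplasmic reticulum, tapasin (TAPBP) holds the empty class I molecule at that pump, and the aminopeptidase ERAP1 trims peptides there. NLRC5 is a transactivator of class I genes, and interferon signalling, in part through IRF1, is known to raise most genes of the pathway. CD8+ T cells read the displayed peptides, and the loss of class I display is a known feature of some tumours.

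The libraries held 26729278 to 44133836 gene counts. The epithelial marker CDH1 went from 188.6 and 191 CPM (gene counts relative to library size, scaled between libraries by the TMM method) in A549 to 2.86 and 3.05 in TD, and the mesenchymal marker CDH2 went from 0.431 and 0.539 to 178 and 197 CPM. The 7 leukocyte markers, which were checked because leukocytes carry much class I, summed to 1.19 and 0.978 CPM in A549 and to 4.72 and 5.46 CPM in TD. CD3E and MS4A1 had 0 counts in all 4 libraries, and most of the TD sum came from CSF1R, at 4.20 and 5.19 CPM. The part of leukocyte RNA in the results below was not tested. In bulk RNA, fewer cells with a transcript and less transcript per cell cannot be told apart.

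6 of the 9 genes (HLA-B, HLA-C, HLA-E, TAP1, TAP2 and TAPBP) lie in the MHC region of chromosome 6, and the counts of that region stood apart. HLA-B had 2 and 0 counts in A549 and 9 and 6 in TD. HLA-C had 62 and 71 counts in A549 and 14 and 20 in TD, while B2M, whose product pairs with these chains, had 18011, 20186, 7224 and 10306. Per kilobase of transcript, a scale on which genes can be compared, B2M stood at 389 CPM per kb in A549 and HLA-C at 1.504. B2M exceeded the sum of HLA-B, HLA-C and HLA-E by 20.8-fold and 31.1-fold in the A549 libraries and by 25.6-fold and 16.4-fold in TD. Neighbours with no part in antigen presentation, named here after their values were seen, were also low or uneven. The heat shock gene HSPA1A had 1 to 5 counts in every library, the RNA helicase DDX39B 92 to 175, and the tubulin gene TUBB 142.9 CPM in TD replicate 1 against 533 in TD replicate 2. From HLA-F to TAPBP, 45 protein-coding genes had a mean of at least 5 CPM. Of these, 5 (11.1%) differed by over 1.5-fold between the TD replicates and 2 (4.44%) between the A549 replicates, against 1% and 0.665% of the 10074 such genes elsewhere. TD replicate 2 was above replicate 1 for 39 of the 45, with a median ratio of 1.24 against 1.07 elsewhere. A gene of the 45 with 0 counts in both TD libraries has no TD ratio. That gene was counted as neither above nor over 1.5-fold apart in TD. Reads that aligned to more than 1 place, 8.08% to 9.22% of reads, were counted for no gene, and how many came from this region was not tested. The genes of this region are therefore given with their counts, their levels are not read as the true abundance of the transcripts, and results are also given for B2M (chromosome 15), NLRC5 (chromosome 16) and ERAP1 (chromosome 5) alone.

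Of the 9 genes, 8 passed the expression filter, and HLA-B did not. Of these 8, 5 were lower in TD and 0 were higher by edgeR's quasi-likelihood test at an adjusted p below 0.05, where 21.4% of the 17785 genes tested were lower and 21.6% higher. The 5 were TAP1, HLA-C, B2M, TAP2 and NLRC5, and each fell by at least 2-fold, as 12.3% of all tested genes did, while 9.49% rose by as much. HLA-E, TAPBP and ERAP1 were not called. The median log2 change over the 8 was -1.14, against -0.04 over all genes tested. Of the 3 genes outside the MHC region, B2M and NLRC5 fell and ERAP1 was not called. In the region itself, 27 of 82 tested protein-coding genes (32.9%) were lower and 4 (4.88%) higher, with a median log2 change of -0.24, against 24.9% and 25.8% and a median of 0.02 for protein-coding genes elsewhere. Both TD libraries lay below both A549 libraries for 7 of the 8 genes, TAPBP being the exception, as for 37.5% of all genes tested, and above both for none of the 8, against 36.5% of all.

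**Figure D1:**
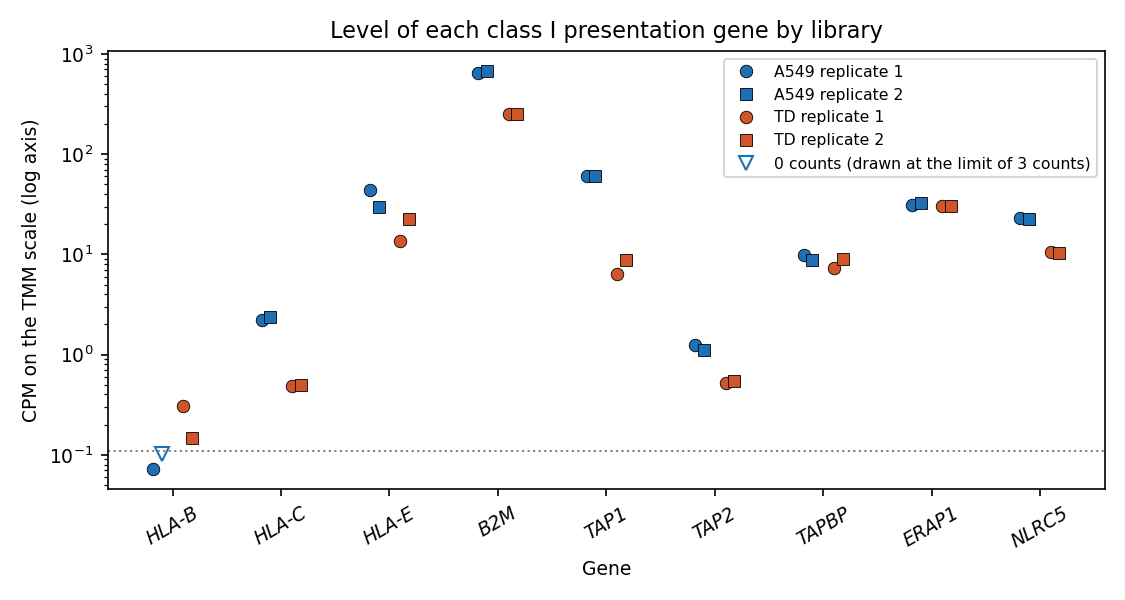
CPM on the TMM scale (log axis) of each of the 9 genes in each library, A549 in blue and TD in orange, circles for replicate 1 and squares for replicate 2. An open triangle marks 0 counts, drawn at the limit that 3 counts give, and the dotted line is that limit in the shallowest library (0.108 CPM). TAP1 shows the widest gap between the groups, and the libraries of ERAP1 and TAPBP lie close together.

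**Figure D2:**
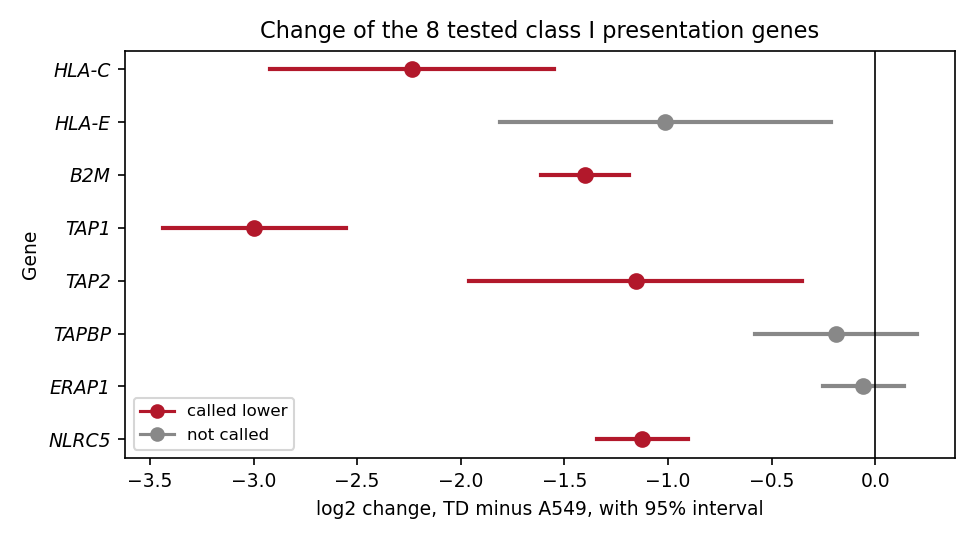
Log2 change (TD minus A549) of the 8 tested genes with 95% intervals from edgeR's quasi-likelihood fit, red where called lower and grey where not called. TAP1 lies at -3.00 and ERAP1 at -0.06, and the intervals of TAPBP and ERAP1 include 0.

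Among the heavy chains, HLA-C fell and HLA-E did not pass the test. HLA-C, which presents peptides to T cells and engages receptors of natural killer cells, stood at 2.23 and 2.39 CPM in A549 and at 0.4825 and 0.492 CPM in TD. The TD libraries were both lower, 4.74-fold in the mean (log2 change -2.24, SE 0.26, edgeR adjusted p = 0.00286), on no more than 71 counts in any library. HLA-E shows signal peptides of other class I chains to natural killer cells. It had 1214 and 871 counts in A549 and 392 and 915 in TD, or 43.6 and 29.4 CPM and 13.5 and 22.5 CPM. The groups did not overlap, but the replicates of each group lay farther apart than the nearest libraries of the 2 groups, and the change was not called (log2 change -1.01, SE 0.31, 95% interval -1.81 to -0.21, edgeR adjusted p = 0.0522). HLA-E was called without TD replicate 1 (log2 change -0.69) and without TD replicate 2 (-1.43). It was not called without A549 replicate 1 (-0.75, edgeR adjusted p = 0.215) or without A549 replicate 2 (-1.30, 0.0809), so its size moved with the library left out in either group. HLA-B, the most polymorphic of these chains, had a TD to A549 ratio of 6.19 by counts (95% exact interval 1.44 to 55.8), from 2 counts in A549 and 15 in TD, and no level can be read from so few counts. Exons of HLA-B and HLA-C overlap in GENCODE 29. Reads shared between HLA genes, and alleles of this cell line that differ from the reference, can both change the counts of these chains.

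B2M, the light chain of every class I molecule and a gene of chromosome 15, fell with little spread. It stood at 647 and 680.4 CPM in A549 and at 249 and 253 CPM in TD. Both TD libraries held about the same level, which was 37.9% of the A549 mean (664 ± 23.55 CPM to 251 ± 3.17 CPM, mean ± SD, n = 2 per group, with the edgeR model fitted across all genes; log2 change -1.40, SE 0.08, adjusted p = 0.00031). B2M remained among the abundant transcripts, above 96.5% of the tested genes by CPM in TD and above 99.1% in A549.

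The peptide pump showed the largest fall among the 9 genes. TAP1 had 1703 and 1805 counts in A549 and 185 and 359 in TD, or 61.2 and 60.8 CPM and 6.38 and 8.83 CPM. Its TD mean was 12.5% of the A549 mean (61.0 ± 0.244 to 7.60 ± 1.73 CPM, n = 2 per group; log2 change -3.00, SE 0.17, edgeR adjusted p = 0.000287), and 4.71% of all tested genes had a lower log2 change. TAP1 lies in the MHC region. Its change stayed between -2.78 and -3.26 when any 1 library was left out, a check that cannot show a loss of reads common to all libraries. TAP2, the partner subunit, had 35 and 33 counts in A549 and 15 and 22 in TD. It went from 1.26 and 1.11 CPM to 0.517 and 0.541 CPM (log2 change -1.16, SE 0.31, edgeR adjusted p = 0.0364). The call on TAP2 was lost without A549 replicate 1 (adjusted p = 0.193), without A549 replicate 2 (0.145), after thinning each library to the smallest total of gene counts (0.0646) and by DESeq2 (0.143). Per kilobase, TAP1 exceeded TAP2 by 93.5-fold and 105-fold in A549 and by 23.7-fold and 31.4-fold in TD, ratios that carry the low TAP2 counts. Exons of TAP2 overlap those of another gene on its strand, and exons of TAP1 those of the antisense gene PSMB8-AS1, in GENCODE 29.

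TAPBP and ERAP1, which act on the loading and trimming of peptides, were not called. TAPBP had 272 and 263 counts in A549 and 213 and 365 in TD, or 9.77 and 8.865 CPM and 7.34 and 8.98 CPM, so the groups overlapped (log2 change -0.19, SE 0.15, edgeR adjusted p = 0.376). Its 95% interval runs from 0.668 to 1.15 times the A549 level, which leaves out a 2-fold change. ERAP1 stood at 30.8 and 32.4 CPM in A549 and at 30.2 and 30.5 CPM in TD (log2 change -0.06, SE 0.08, edgeR adjusted p = 0.585). The interval of ERAP1 runs from 0.839 to 1.10 times the A549 level. ERAP1 exons overlap those of CAST on the other strand in GENCODE 29, and although the library kit marks strand, the strand setting of the counting is not given, so its value is uncertain in that part. The TAPBP to TAP1 ratio per kilobase went from 0.126 and 0.115 in A549 to 0.906 and 0.8003 in TD.

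NLRC5, the transactivator, fell to about the same level in both TD libraries. It stood at 23.2 and 22.4 CPM in A549 and at 10.55 and 10.4 CPM in TD, a 2.18-fold lower mean (22.8 ± 0.562 to 10.5 ± 0.101 CPM, n = 2 per group; log2 change -1.12, SE 0.085, edgeR adjusted p = 0.000701). NLRC5 lies on chromosome 16 and kept its call under each of the alternatives run, with a log2 change of -1.11 to -1.20. The order of the falls by log2 change was TAP1, HLA-C, B2M, TAP2, NLRC5, HLA-E, TAPBP and ERAP1. The 95% intervals of TAP1 and B2M did not overlap, while those of HLA-C overlapped with both of these, and those of B2M, TAP2, NLRC5 and HLA-E overlapped one another.

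Promoters of 7 of the 9 genes were in the RefSeq table (GRCh38.p14, another build than that of the counts), as the 250 bases before each start. They are shown because the genes above share known regulators, the interferon response factors. Those factors bind the interferon-stimulated response element (ISRE), searched on both strands as GAAA, any 2 bases and GAAA. A looser variant, GAA, any 2 bases and GAAA, was searched after the sequences had been seen. Capitals mark any match to either, which can overlap one another.
B2M, chr15:44711267-44711516, plus strand: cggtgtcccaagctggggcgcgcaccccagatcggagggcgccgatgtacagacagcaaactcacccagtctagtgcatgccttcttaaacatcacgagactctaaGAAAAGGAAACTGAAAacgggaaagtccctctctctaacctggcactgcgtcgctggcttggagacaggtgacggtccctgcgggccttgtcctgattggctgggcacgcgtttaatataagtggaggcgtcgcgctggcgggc
TAP1, chr6:32853705-32853954, minus strand: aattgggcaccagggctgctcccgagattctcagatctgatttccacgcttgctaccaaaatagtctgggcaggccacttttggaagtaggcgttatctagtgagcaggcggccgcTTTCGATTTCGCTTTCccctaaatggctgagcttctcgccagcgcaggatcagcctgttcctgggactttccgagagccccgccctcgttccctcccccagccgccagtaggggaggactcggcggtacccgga
HLA-C, chr6:31272093-31272342, minus strand: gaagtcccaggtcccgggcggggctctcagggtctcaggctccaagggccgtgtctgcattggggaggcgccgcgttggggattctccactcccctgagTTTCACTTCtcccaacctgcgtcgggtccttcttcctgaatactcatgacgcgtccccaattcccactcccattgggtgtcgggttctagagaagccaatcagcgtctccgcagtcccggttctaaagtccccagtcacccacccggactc
TAPBP, chr6:33314079-33314328, minus strand: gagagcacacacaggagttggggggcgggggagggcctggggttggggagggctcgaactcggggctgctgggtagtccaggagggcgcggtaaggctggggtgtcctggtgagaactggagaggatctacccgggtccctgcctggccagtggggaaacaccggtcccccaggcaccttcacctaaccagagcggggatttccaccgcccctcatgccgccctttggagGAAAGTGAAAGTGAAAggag
ERAP1, chr5:96807946-96808195, minus strand: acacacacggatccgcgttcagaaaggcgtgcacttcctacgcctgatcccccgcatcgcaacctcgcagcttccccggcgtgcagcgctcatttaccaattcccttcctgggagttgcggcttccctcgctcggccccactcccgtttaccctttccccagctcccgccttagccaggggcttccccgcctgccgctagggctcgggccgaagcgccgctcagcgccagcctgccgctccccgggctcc
The windows of B2M, TAP1 (the first of its 2 windows) and TAPBP each held 2 overlapping ISRE matches. That of TAP2 held 1 ISRE match overlapping a match to the variant, and those of HLA-B and HLA-C held the variant alone. The first window of ERAP1, shown above, held neither, and its second window held the variant. An ISRE match was present in 3.02% and either motif in 9.08% of all 35116 windows of this length in the table. A match in these letters is a description and not a binding site. TAPBP, with ISRE matches 4 and 10 bases before its start, was not called, and neither was ERAP1, which had no ISRE match. TAP1, B2M and TAP2, whose matches lay farther from the start, were called lower, as was HLA-C, whose window held the variant alone. Whether the presence or position of a match bears on the changes was not tested. The E2 box CACCTG or its complement, bound by SNAIL and ZEB factors, was in the window of 1 of the 7 genes (B2M), and in 17.5% of all windows.

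The other 66 genes of the class I pathway were listed by role, without those above. Of 62 tested, 22 were lower and 9 higher in TD, where 21.4% and 21.6% of all genes tested were lower and higher. At 2-fold or more, 15 were lower and 1 higher, against 12.3% and 9.49% of all genes tested. Their median log2 change was -0.11, against -0.04 over all genes tested. Outside the MHC region, 18 of 58 were lower and 9 higher. The calls thus went both ways, but those of 2-fold or more were nearly all lower. The counts by role below rest on few genes each, and differences between roles were not tested.

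**Figure D3:**
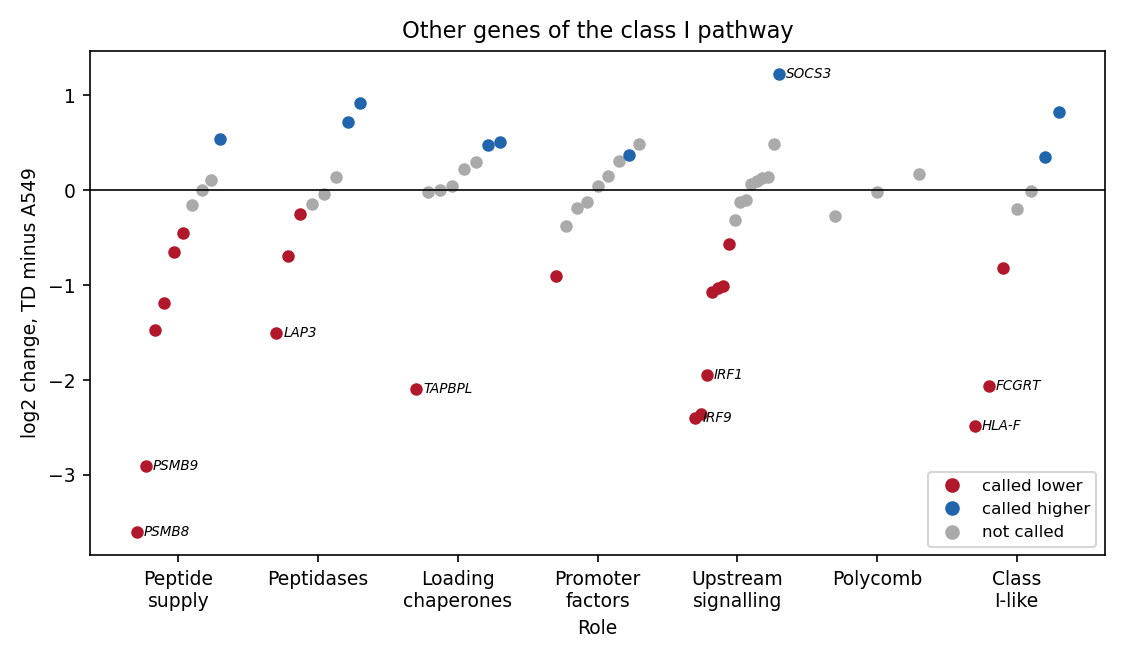
Log2 change (TD minus A549) of tested genes of the other class I pathway list, grouped by role, each point 1 gene, red where called lower, blue where called higher and grey where not called. The largest falls are PSMB8 at -3.61 and PSMB9 at -2.91 in peptide supply.

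In peptide supply, 6 of 10 genes fell and 1 rose, against 21.4% lower and 21.6% higher over all genes tested. PSMB8 and PSMB9, immunoproteasome subunits encoded beside TAP1 in the MHC region, went from 16.8 and 17.1 CPM to 1.48 and 1.30 CPM and from 7.58 and 5.865 CPM to 0.793 and 0.984 CPM. PSMB8 had 467, 507, 43 and 53 counts in the 2 A549 and the 2 TD libraries, and PSMB9 had 211, 174, 23 and 40. PSMB10, the third inducible subunit, lies outside that region and went from 13.8 and 14.9 CPM to 8.27 and 10.0 CPM (log2 change -0.65, SE 0.14, edgeR adjusted p = 0.0169), a call lost without A549 replicate 1 (0.0597) and without A549 replicate 2 (0.0798). The proteasome activator genes PSME1 and PSME2, named after their values were seen, fell with log2 changes of -1.19 and -1.47. Constitutive partners changed less: PSMB5 fell with a log2 change of -0.45, and PSMB6 and PSMB7 were not called at -0.16 and 0.11. PSME3, a nuclear proteasome activator, rose from 197 and 203 CPM to 279.6 and 301 CPM.

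Among 8 peptidases, 3 fell and 2 rose, against 21.4% lower and 21.6% higher over all genes tested. LAP3, an interferon-inducible aminopeptidase, went from 143 and 149 CPM to 48.5 and 54.7 CPM, and ERAP2, which trims beside ERAP1, from 3.45 and 3.54 CPM to 2.17 and 2.16 CPM. The call on ERAP2 was lost without A549 replicate 1 (edgeR adjusted p = 0.132) and without A549 replicate 2 (0.148). LNPEP, which trims peptides in endosomes for cross-presentation, rose from 40.1 and 44.05 CPM to 80.4 and 78.4 CPM, and BLMH rose from 46.0 and 48.4 CPM to 75.8 and 79.2 CPM.

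Of 8 chaperones of folding and loading, 1 fell and 2 rose, against 21.4% lower and 21.6% higher over all genes tested. TAPBPL, a tapasin relative that edits peptides, went from 3.34 and 2.83 CPM to 1.07 and 0.394 CPM (log2 change -2.10, SE 0.51, edgeR adjusted p = 0.0272), a call lost without A549 replicate 1 (0.169) and without A549 replicate 2 (0.136). Its log2 change was -2.95 without TD replicate 1 and -1.52 without TD replicate 2. HSPA5 and UGGT1, general folding factors of the endoplasmic reticulum, rose with log2 changes of 0.51 and 0.48. HSPA5 was not called without either A549 library (edgeR adjusted p = 0.0801 and 0.0653), nor UGGT1 without A549 replicate 1 (0.0517). CALR and PDIA3, both parts of the loading complex with TAPBP, were not called, at 902 and 894 CPM for CALR and 372 and 434 CPM for PDIA3 in A549 and TD.

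Of 9 promoter factors, which include the partners NLRC5 needs on DNA, 1 fell and 1 rose. Over all genes tested, 21.4% were lower and 21.6% higher. RFX5, the X-box factor, went from 76.7 and 81.0 CPM to 43.0 and 41.6 CPM (log2 change -0.90, SE 0.075, edgeR adjusted p = 0.000945). CREB1 rose with a log2 change of 0.37 and was not called without A549 replicate 1 (edgeR adjusted p = 0.11) or replicate 2 (0.0653). The other 7 were not called, among them CIITA, the class II relative of NLRC5, whose means were 0.503 and 0.62 CPM. None of the 3 Polycomb genes EZH2, EED and SUZ12, whose complex can silence class I genes, was called, with log2 changes of -0.27, -0.02 and 0.17. EZH2 had the lowest edgeR adjusted p of these genes, 0.0724.

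Of 17 tested genes of upstream signalling, 8 fell and 1 rose, against 21.4% lower and 21.6% higher over all genes tested. IRF1, an interferon-induced factor that acts on class I promoters, went from 27.2 and 25.65 CPM to 6.20 and 7.5 CPM (log2 change -1.94, SE 0.125, edgeR adjusted p = 0.000428), and IRF9, a subunit of the complex that binds the ISRE, from 10.8 and 8.865 CPM to 2.21 and 1.525 CPM. The genes that fell also included STAT2, IRF2, JAK2, IFNGR1 and IFNAR2, named after their values were seen. SOCS3, a feedback inhibitor of cytokine signalling, rose from 7.33 and 8.70 CPM to 17.6 and 20.0 CPM. The NF-κB genes NFKB1, RELA and RELB were not called, with log2 changes of 0.13, 0.10 and 0.49.

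Of 7 tested class I-like molecules, 3 fell and 2 rose, against 21.4% lower and 21.6% higher over all genes tested. HLA-F, in the MHC region, had 89 and 176 counts in A549 and 22 and 35 in TD, or 3.20 and 5.93 CPM and 0.758 and 0.861 CPM. FCGRT, the B2M-bound receptor that spares IgG from breakdown, went from 22.4 and 18.7 CPM to 4.20 and 5.63 CPM. MR1, which shows vitamin metabolites to T cells and also pairs with B2M, rose with a log2 change of 0.35, and the stress ligand ULBP2 rose with a log2 change of 0.82. The calls on MR1 and ULBP2 were lost without A549 replicate 1 (edgeR adjusted p = 0.211 and 0.185) and without A549 replicate 2 (0.166 and 0.0899). HLA-G had 1 count in A549 and 0 in TD, and MICA had 48, 7, 2 and 12 counts in the 4 libraries, and neither was tested.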

How the data were processed

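The deposited values are raw counts of reads per Ensembl gene, 1 file per library, not normalized. Per the submitters' processing notes, FastQC 0.11.8, STAR 2.7.1a, HTSeq 0.11.2 and hg19 (GRCh37) were used. Which annotation release and strand setting were used was not stated in the labels. Reads given to no gene, 17.0% to 18.6% of each library, were left out. Of 57820 identifiers, 52338 had a symbol in the tables used, which are on GRCh38 and served for names, lengths and gene order. Lengths are those of the longest CCDS transcript in GENCODE 29.

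TD was compared with A549 by the quasi-likelihood test of edgeR 4.0.16 (R 4.3.3) with TMM scaling, a minimum count of 10 in the expression filter and Benjamini-Hochberg adjustment over all 17785 genes tested. The threshold for a call was an adjusted p of 0.05. The procedure was run on simulated data that varied less between libraries than these data, whose biological coefficient of variation was 20.1%. That run does not show how the procedure performs at the spread seen here. The limit that a count of 0 allows, 3 counts, came to 0.0738 to 0.108 CPM, and count intervals cover counting error only. Alternatives included DESeq2 1.42.0 and limma 3.58.1. The region of chromosome 6 was left out as an alternative added after seeing the data. Named genes were the members, set genes (PSMB8, PSMB9, PSMB10, IRF1, RFX5, PDIA3 and CALR) and the 2 largest called changes in each direction of each role. Some genes are not reported here in the text or the plot by role, but stand in the counts. Further genes were named after their values were seen. Members and lists were chosen with earlier results of these data known.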

Additional observations from a re-analysis of the deposited data

How the results depend on the processing

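Of the 9 genes, 4 to 6 were called lower in TD and 0 higher under each alternative run but one, and 2 were lower with the MHC region left out, an alternative added after seeing the data that removes 6 of them. TAP1, HLA-C, B2M and NLRC5 were called in each fit that tested them. TAP2 lost its call under 6 alternatives (log2 change -0.99 to -1.27), and HLA-E gained one under 10 (-0.69 to -1.43, adjusted p up to 0.215 over all alternatives). Without a filter, HLA-B had a fitted log2 change of 2.53 (SE 1.10, edgeR adjusted p = 0.117), the other direction than the other 8. The number of other pathway genes called higher was 9. It was 2 by the test against a 1.5-fold change and 4 to 14 with 1 library left out. Over all genes, calls were 3809 lower and 3833 higher. They were 2109 and 1741 by the test against a 1.5-fold change. With 1 library left out they ranged from 2236 to 6140 lower and from 2114 to 5329 higher. With 1 library left out, 1 group has a single library, whose spread is taken from the remaining pair, and the biological coefficient of variation was 34.1% without A549 replicate 1 and 7.08% without TD replicate 1, against 20.1% with all. Library totals in place of TMM scaling raised the share of lower among called genes from 49.8% to 55.9%. CALR, not called, ranged from a log2 change of -0.086 to 0.067 with 1 library left out, and was above 0 without TD replicate 1. With the replicate number as a block, 4 of the 9 genes were called lower, as were 2847 genes in all, with 2964 higher. Same-numbered libraries share only a number (correlation of their deviations -0.08 over 17785 genes). The filter at 5 CPM left HLA-C and TAP2 untested. The low counts of HLA-B, HLA-C and TAP2 limit what these genes can show.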

Other observations

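Class II molecules, which share the partners of NLRC5 on DNA but need CIITA, were near 0. Of 11 class II pathway genes, 3 passed the expression filter. HLA-DRB1, HLA-DQA1, HLA-DQB1 and HLA-DOA had 0 counts in all 4 libraries, HLA-DRA had 1 count in all, and CD74, the invariant chain, had 3, 10, 1 and 9 counts. These genes, except CD74, lie in the same region of chromosome 6 as the HLA class I genes, so no absence of their transcripts can be read from the counts. HLA-DMA and HLA-DMB, which load peptides on class II, were lower in TD (edgeR adjusted p = 0.0283 and 0.00767). Lower calls made up 21.4% of all genes tested. HLA-DMA had 25 and 27 counts in A549 and 9 and 14 in TD, or 0.898 and 0.910 CPM and 0.310 and 0.344 CPM. HLA-DMB had 28 and 39 counts in A549 and 1 and 5 in TD, or 1.01 and 1.315 CPM and 0.0345 and 0.123 CPM. Both calls rest on few counts, in genes of the MHC region. CTSS, the protease cathepsin S, encoded outside that region, was not called (log2 change -0.32, edgeR adjusted p = 0.108).

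CSF1R, a receptor of macrophages used here as a leukocyte marker, had 9 and 1 counts in A549 and 122 and 211 in TD, while PTPRC stayed at 0 to 0.138 CPM and CD14 fell from 0.826 and 0.775 CPM to 0.345 and 0.172 CPM.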
